A study of Schizosaccharomyces pombe with 7 samples.

Results

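The 3 centromeres of the fission yeast Schizosaccharomyces pombe were described from 424 of the 41551 non-control probes of a genome tiling array. The probes were taken by position alone: 161 lay at 3745800 to 3796200 on chromosome 1, 132 at 1594500 to 1653600 on chromosome 2 and 131 at 1069200 to 1142700 on chromosome 3, as the probe names give them. H3K9me2, histone H3 dimethylated on lysine 9, was measured by ChIP-chip in fft3∆ cells (2 arrays, series 2 and 3), in UV21 cells (1 array, series 1) and in WT cells (3 arrays, series 1, 2 and 3). fft3∆ cells lack the Snf2-family chromatin remodeller Fft3. The labels name UV21 without saying what it is, and give no further allele for any strain. Cultures grew exponentially in rich medium at 30 °C and were fixed with 3% paraformaldehyde. A further array, labelled WT, measured Fft3-GFP; its cells spent 6 h at 18 °C, were fixed, and were then crosslinked again with 10 mM dimethyl adipimidate. On all arrays the immunoprecipitate was the Cy5 channel and the whole-cell extract the Cy3 channel, with no dye swap.

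A fission yeast centromere has a central core, where the histone H3 variant Cnp1 marks the site of the kinetochore, between innermost and outer repeats. The outer repeats are transcribed and processed by RNA interference, and the methyltransferase Clr4 places H3K9 methylation there, which Swi6 binds. tRNA genes lie between the core domain and the outer repeats and are known as barriers between the 2 kinds of chromatin.

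The tRNA genes that mirror each other around each core are the annotated landmarks against which the width of a central stretch can be read, so 4 of them are shown first. In the RefSeq annotation of assembly ASM294v3, 11 mirrored pairs of tRNA genes (same product, opposite strands, 1 shared axis) were found around the 3 cores, and the members of all 11 pairs were identical. The 22 genes had only 8 distinct sequences: the tRNA-Ile and tRNA-Ala genes of centromeres 1 and 2 were the same, as were the tRNA-Val genes of centromeres 2 and 3. Capitals mark GTTCNANNC, letters of the internal B box bound by TFIIIC, searched on both strands; 18 of the 22 genes held it on their own strand, against 91.2% of the 171 nuclear tRNA genes.
SPATRNAGLU.03, centromere 1, chrI:3765434-3765505, minus strand: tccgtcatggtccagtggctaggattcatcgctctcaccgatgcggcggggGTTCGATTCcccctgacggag
SPBTRNAVAL.06, centromere 2, chrII:1619174-1619256, minus strand: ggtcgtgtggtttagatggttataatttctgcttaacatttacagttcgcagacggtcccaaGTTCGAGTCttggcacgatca
SPBTRNAALA.09, centromere 2, chrII:1618440-1618513, minus strand: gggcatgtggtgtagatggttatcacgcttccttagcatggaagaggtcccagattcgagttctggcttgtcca
SPCTRNATHR.08, centromere 3, chrIII:1093083-1093154, minus strand: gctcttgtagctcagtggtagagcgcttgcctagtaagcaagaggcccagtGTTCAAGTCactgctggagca
These coordinates belong to ASM294v3. The build behind the array's positions is not given in the sources used here. No gene of the centromeres was therefore placed on a probe, and only distances are compared between the 2 below. The exception is fft3, whose ASM294v3 position was set against probe positions with a margin of 5 kb to check the strain labels.

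Values are log2 of ChIP over extract from the scanner software's ratio column, less each array's median. Of the 424 probes, 377 passed the filters: none was dim in Cy3, and 47 were flagged as non-uniform on at least 1 array. The arrays differed in ways that bear on these values. On WT series 3 the Cy5 signal of 202 of the 424 probes was saturated, 198 of them in the outer repeats as defined below, and no probe was saturated on any other array. WT series 3 therefore understates the repeats, and results are also given without it. The fft3∆ labels were borne out in the extract channel: 9 probes of the genome fell by more than 3 log2 units below every WT array in both fft3∆ arrays. All 9 lay within 5 kb of fft3 by its ASM294v3 position, which may be shifted against the array's. Their median Cy3 was 1.96% and 0.959% of the array median in fft3∆ series 2 and 3, 76.2% in UV21, and 49.0% to 80.5% in WT. The labels do not say that the arrays came from separate cultures, so p-values measure only the spread between arrays, which may be technical.

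Each centromere showed a single central stretch of low H3K9me2 between 2 flanks of high H3K9me2. Its limits were set where the WT mean, smoothed over 5 probes, crossed the level midway between its 10th and 90th percentile (4.19, 3.98 and 4.06 in centromeres 1, 2 and 3). The level in WT therefore defines the segments and is given as a description only. The low stretch ran over 11.4 kb in centromere 1 (3766200 to 3777600), 9 kb in centromere 2 (1620900 to 1629900) and 11.7 kb in centromere 3 (1093800 to 1105500). The first probes beyond it were 12, 11.1 and 13.8 kb apart. In the assembly, the mirrored tRNA-Glu genes of centromere 1 lie 11.3 kb apart and its tRNA-Ala genes 12.1 kb. The tRNA-Val and tRNA-Ala genes of centromere 2 lie 9.90 and 11.4 kb apart, and the tRNA-Thr and outermost paired tRNA genes of centromere 3 lie 12.7 and 14.0 kb apart. Pairs nearer the centre, tRNA-Ile in centromere 1 and tRNA-Leu in centromere 3, lie 5.55 and 6.62 kb apart. The low stretch was within the range of all mirrored spacings in centromeres 1 and 3, but these inner pairs make that range wide. In centromere 3 it was narrower than both spacings given first. In centromere 2 it was below every spacing, by less than 1 kb from the nearest. Of the 300 bp tiling steps, 4.73% held no probe in centromere 1, 33.3% in centromere 2 and 46.7% in centromere 3.

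**Figure D1:**
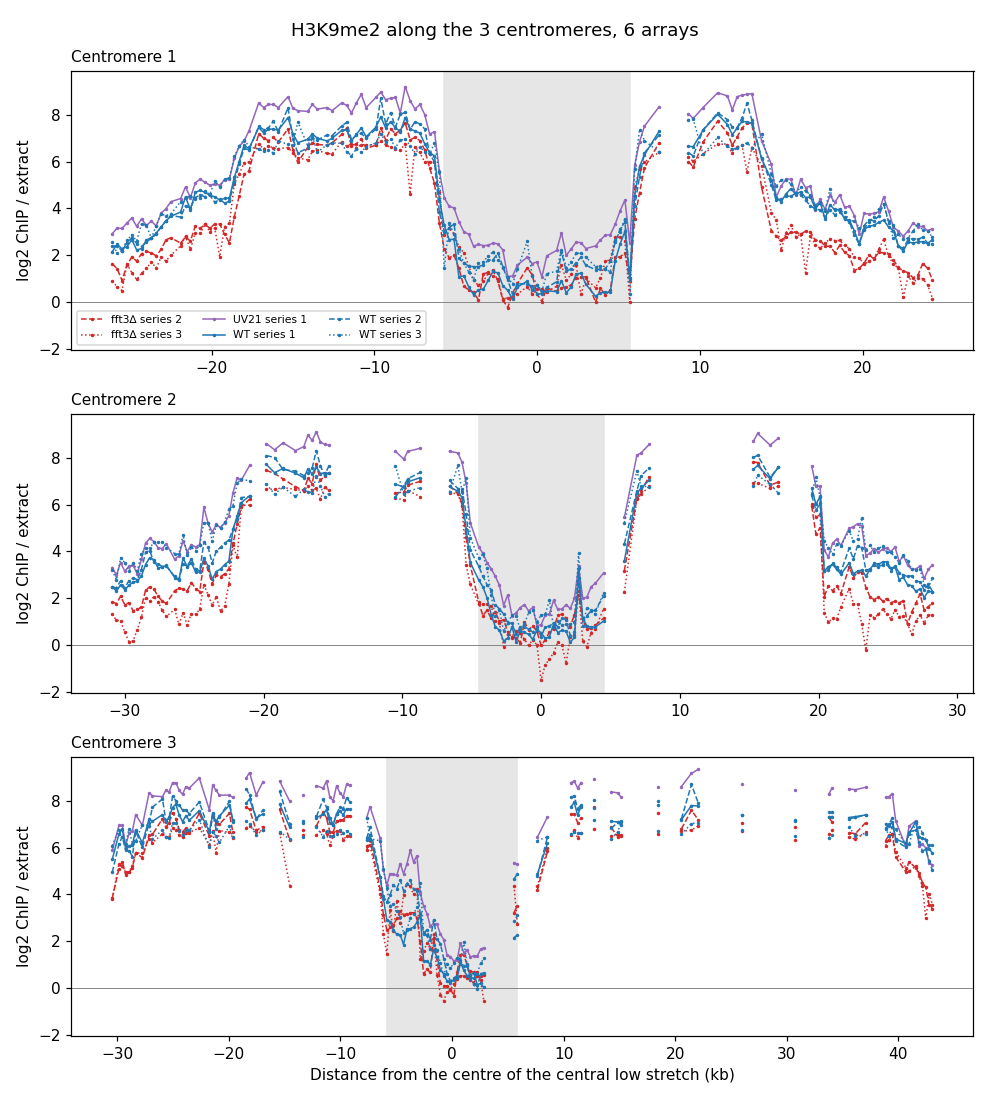
H3K9me2 (log2 ChIP over extract, array median at 0) of each kept probe against distance from the centre of the central low stretch (kb), with 1 line per array, broken where probes are over 1 kb apart; grey marks the low stretch. UV21 lies above WT at most probes of the repeats and the low stretch, fft3∆ lies furthest below WT outside the plateau, and many tiling steps of centromeres 2 and 3 are empty.

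The outer repeats of centromere 1 averaged 5.58 and 5.40 in fft3∆ series 2 and 3, 7.32 in UV21, and 6.37, 6.38 and 6.23 in WT series 1, 2 and 3 (70 probes). Those of centromere 2 averaged 5.87 and 5.39 in fft3∆, 7.57 in UV21, and 6.16, 6.44 and 6.44 in WT (41 probes). Those of centromere 3 averaged 6.40 and 6.02 in fft3∆, 7.93 in UV21, and 7.001, 7.07 and 6.60 in WT (80 probes). In all 3 centromeres both fft3∆ arrays lay below every WT array, and UV21 lay above every WT array.

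The central low stretch of centromere 1 averaged 0.90 and 1.24 in fft3∆ series 2 and 3, 2.57 in UV21, and 1.01, 1.61 and 1.73 in WT series 1, 2 and 3 (36 probes). That of centromere 2 averaged 0.91 and 0.44 in fft3∆, 2.11 in UV21, and 0.85, 1.31 and 1.55 in WT (30 probes). That of centromere 3 averaged 1.58 and 1.68 in fft3∆, 3.21 in UV21, and 1.42, 2.40 and 2.06 in WT (32 probes). Here fft3∆ and WT overlapped in every centromere, and UV21 was again above all 3 WT arrays.

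Outside the repeats, 90 probes of centromeres 1 and 2 formed edges below the midway level. The edges of centromere 1 averaged 1.89 and 1.66 in fft3∆ series 2 and 3, 3.66 in UV21, and 3.06, 3.10 and 3.36 in WT (40 probes). Those of centromere 2 averaged 2.13 and 1.24 in fft3∆, 3.97 in UV21, and 3.03, 3.21 and 3.91 in WT (48 probes). Both fft3∆ arrays lay below every WT array in both edges. The stretch of centromere 3 ended while H3K9me2 was still above the midway level, so it has no edges.

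**Figure D2:**
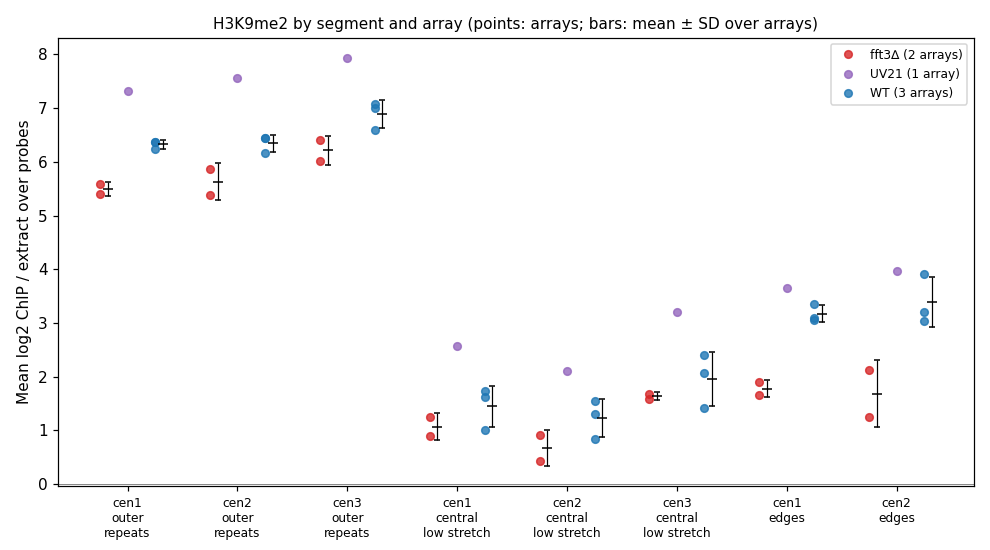
Mean log2 ChIP over extract of the kept probes of each segment, by array (points: fft3∆, UV21 and WT from left to right), with mean ± SD over arrays where a group has more than 1. fft3∆ and WT points are separate in the outer repeats and the edges and overlap in the central low stretches.

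The 3 segments also differed in what the rule did not use, the marks in the probe names. The letters f and m, whose meaning the files do not give, were absent from 32.8% of the 424 probes, against 96.6% of the probes elsewhere. In the outer repeats 51.5% of the probes carried m and 33.9% carried f, in the low stretches 2.97% carried m and 64.4% f, and in the edges 80.0% carried neither. The central stretch of centromere 2 stood apart, with no mark on 76.7% of its probes, against 10.3% in centromere 1 and 18.8% in centromere 3. Within the repeats of centromere 1, m-marked probes averaged 7.19 in WT, f-marked ones 6.43 and unmarked ones 4.69. In the repeats of centromeres 2 and 3 as well, m-marked probes had the highest WT mean (7.03 and 7.21).

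Within the low stretches H3K9me2 was not even. Cut into 3 parts of equal length, the middle part averaged 0.89 ± 0.39 in centromere 1, 0.80 ± 0.34 in centromere 2 and 1.04 ± 0.26 in centromere 3 in WT (SD, n = 3 arrays). The left part in centromere 3 was the highest of the 9 parts, at 3.13 ± 0.77 in WT, and the least alike between arrays: it averaged 2.55 and 3.03 in fft3∆, 4.77 in UV21, and 2.34, 3.88 and 3.17 in WT series 1, 2 and 3. It spanned 2.43 log2 units over the 6 arrays, where the other parts spanned 1.20 to 1.90. fft3∆ and WT overlapped in it.

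The lowest WT probe of each low stretch lay within 2.25 kb of its centre. It was at 3770400 in centromere 1, with 0.38 and 0.21 in fft3∆, 1.11 in UV21, and 0.11, 0.34 and 0.77 in WT. In centromere 2 it was at 1627500, with 0.79 and 0.34 in fft3∆, 1.56 in UV21, and 0.12, 0.40 and 0.88 in WT. In centromere 3 it was at 1101900, with 0.53 and 0.69 in fft3∆, 1.36 in UV21, and 0.14, -0.04 and 0.60 in WT. UV21 was the highest array at all 3, and fft3∆ and WT overlapped at all 3.

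The highest WT probes were at 3762300 in centromere 1, 1609200 in centromere 2 and 1081200 in centromere 3, all marked m and all saturated on WT series 3. At 3762300 the values were 7.43 and 6.88 in fft3∆, 8.97 in UV21, and 7.91, 8.70 and 7.18 in WT. At 1609200 they were 7.72 and 6.69 in fft3∆, 9.10 in UV21, and 7.61, 8.30 and 7.20 in WT. At 1081200 they were 7.72 and 6.85 in fft3∆, 8.97 in UV21, and 7.89, 8.52 and 7.11 in WT. WT series 3 therefore gives only a lower bound at these probes. Against WT series 1 and 2 alone, fft3∆ lay below WT at 3762300 and 1081200 and overlapped it at 1609200. Whether an m-marked probe reads 1 centromere or several is not given in the files.

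Across the borders H3K9me2 changed over several probes. At the left border of centromere 1, 300 bp separated the probe at 3765900, with 3.37 and 4.71 in fft3∆, 5.58 in UV21 and 4.36, 3.83 and 5.54 in WT, from the probe at 3766200, with 2.27 and 2.88 in fft3∆, 4.45 in UV21 and 3.27, 3.01 and 1.44 in WT. At its right border the probe at 3777900 read 3.54 and 4.91 in fft3∆, 5.85 in UV21 and 4.53, 4.08 and 5.67 in WT. The neighbouring probe at 3777600, marked m, read 0.90 and -0.02 in fft3∆, 2.52 in UV21 and 1.04, 1.04 and 0.36 in WT. The probe at 3777600 was a single low value: the next one inward, 5.4 kb from the centre, read 3.01, 3.41 and 3.56 in WT. On the left, WT read 6.24, 5.98 and 6.79 at 6.3 kb from the centre and 1.07, 1.86 and 2.25 at 4.8 kb.

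At the left border of centromere 2, the probe at 1620300 read 3.41 and 2.59 in fft3∆, 5.22 in UV21 and 3.52, 4.05 and 4.58 in WT. On its inner side, the probe at 1620900 read 1.84 and 1.74 in fft3∆, 4.19 in UV21 and 2.78, 3.37 and 3.73 in WT. fft3∆ was below every WT array on both sides of this border. At the right border the probe at 1631400 read 3.18 and 2.26 in fft3∆, 5.45 in UV21 and 3.60, 4.32 and 5.23 in WT, while the inner probe at 1629900 read 1.14 and 1.55 in fft3∆, 3.07 in UV21 and 1.02, 2.09 and 2.24 in WT.

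In centromere 3, the outer probe of the left border at 1093500 read 3.13 and 2.31 in fft3∆, 5.05 in UV21 and 3.82, 3.93 and 5.09 in WT. The inner one at 1093800 read 2.49 and 1.45 in fft3∆, 4.39 in UV21 and 2.89, 3.65 and 4.27 in WT, so fft3∆ was again below WT on both sides. At the right border the outer probe at 1107300 read 4.20 and 4.34 in fft3∆, 6.45 in UV21 and 4.87, 4.79 and 6.30 in WT. The inner probe at 1105500 read 3.51 and 2.75 in fft3∆, 5.28 in UV21 and 2.26, 4.87 and 3.11 in WT, with the 2 strains overlapping.

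The comparison of fft3∆ with WT asked where H3K9me2 at the centromeres depends on Fft3. H3K9me2 fell in fft3∆ at the outer parts of the centromeres, and the fall was not confined to them. Over the 10 probes outside the left limit of centromere 1, fft3∆ averaged 1.09 and 0.93, and WT 2.35, 2.44 and 2.77. Outside both limits of every centromere, fft3∆ likewise averaged below every WT array. In limma's fit over all 33704 kept probes, 50 of the 377 centromere probes were lower and none higher in fft3∆ at a Benjamini-Hochberg adjusted p under 0.05, against 2.06% lower and 0.0386% higher of all probes tested. The 50 probes were 32 of 88 in the edges, 18 of 191 in the outer repeats and 0 of 98 in the central low stretches. At an unadjusted p under 0.05 the counts were 88, 56 and 17, against 13.4% of all probes, and none was higher, against 3.76% of all probes. Without WT series 1, or without WT series 3, no centromere probe passed the adjusted threshold, and no probe of the genome did. Without WT series 2 there were 3, without fft3∆ series 3 there were 19, and without fft3∆ series 2 there were 102.

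Counted without a model, both fft3∆ arrays lay below all 3 WT arrays at 88 of 88 edge probes, 87 of 191 probes of the outer repeats and 25 of 98 of the low stretches, against 22.7% of all kept probes. Saturation caps WT series 3 at 157 of the 191 repeat probes and lowers their count. Against WT series 1 and 2 alone, a count added after seeing the data, fft3∆ was below WT at 88 of 88 edge probes, 173 of 191 repeat probes and 28 of 98 probes of the low stretches, against 30.2% of all kept probes. At no centromere probe did both fft3∆ arrays lie above all 3 WT arrays, against 12.7% of all kept probes. The shares in the low stretches (25.5% and 28.6%) were near those of all probes.

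The edges differed by -1.40 in centromere 1 and -1.70 in centromere 2 (fft3∆ minus WT), from means of 1.78 ± 0.16 and 1.68 ± 0.63 in fft3∆ (SD, n = 2) and 3.17 ± 0.16 and 3.39 ± 0.46 in WT (SD, n = 3). The outer repeats differed by -0.84, -0.72 and -0.68 in centromeres 1, 2 and 3, and the low stretches by -0.38, -0.56 and -0.33. An exact 2-sided permutation test over arrays gave p = 0.2 for the repeats and edges, the smallest that 2 arrays against 3 allow. For the low stretches of centromeres 1, 2 and 3 the exact test gave p = 0.4, 0.4 and 0.6. Without WT series 3 the differences were -0.89, -0.67 and -0.82 in the repeats and -1.31 and -1.44 in the edges. With saturated probes left out, the 34 repeat probes that remained of 191 differed by -1.46, -1.35 and -1.60. These were the lower part of the repeats, not the same probes freed of saturation. They averaged 4.86, 4.91 and 5.30 in WT, against 6.33, 6.35 and 6.89 for all repeat probes.

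Single arrays moved several of the differences between fft3∆ and WT by over 1.5 times. The low stretch of centromere 1 differed by -0.60 without WT series 1, by -0.24 without WT series 3 and by -0.21 without fft3∆ series 2. That of centromere 2 differed by -0.32 without fft3∆ series 3, and that of centromere 3 by -0.60 without WT series 1 and by -0.11 without WT series 2. The repeats of centromere 2 differed by -0.48 without fft3∆ series 3. No sign changed.

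Part of what the rule counts as outer repeats lies outside the plateau of high H3K9me2. Split after the data were seen, the plateau (smoothed WT of at least 6) differed by -0.53, -0.41 and -0.64 in centromeres 1, 2 and 3, and the remaining repeat probes by -1.57, -1.57 and -1.47 (21, 11 and 4 probes). In centromere 1 these remaining probes averaged 3.06 and 3.16 in fft3∆, and 4.58, 4.42 and 5.03 in WT. The scanner software's extraction protocol split the arrays into series 1 and 2 against series 3. Within the first (fft3∆ series 2 against WT series 1 and 2) the edges of centromeres 1 and 2 differed by -1.19 and -0.996. Within series 3 (1 array each) they differed by -1.70 and -2.67. The sign was the same under both protocols, and the difference was larger in series 3. Within the first protocol the software version differed by strain, 10.7.3.1 for fft3∆ series 2 and 12.0.3.1 for WT series 1 and 2. Version and strain cannot be told apart there.

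The probes with the largest called falls lay in the edges or at the far ends of the repeats in all 3 centromeres. In centromere 1, the probe at 3786900, 15 kb right of the centre, read 2.65 and 2.22 in fft3∆ and 4.29, 4.40 and 5.23 in WT (-2.20 ± 0.35 SE, adjusted p = 0.0344 by limma). The other 4 named, at 3796200, 3787200, 3788100 and 3795000, fell by 2.09, 1.92, 1.84 and 1.83 on the log2 scale. In centromere 2, the probe at 1598400, 27 kb left of the centre, read 1.77 and 1.22 in fft3∆ and 3.40, 3.36 and 4.16 in WT. The others, at 1651800, 1649400, 1598100 and 1650000, lay 24 to 27.3 kb from the centre, and fft3∆ did not overlap WT at any of them. In centromere 3, all 5 lay at 1141200 to 1142700, 41.5 to 43.1 kb right of the centre; that at 1142100 read 4.30 and 2.97 in fft3∆ and 6.33, 5.92 and 6.33 in WT. Each of the 15 lost its call without WT series 1 and without WT series 3.

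**Figure D3:**
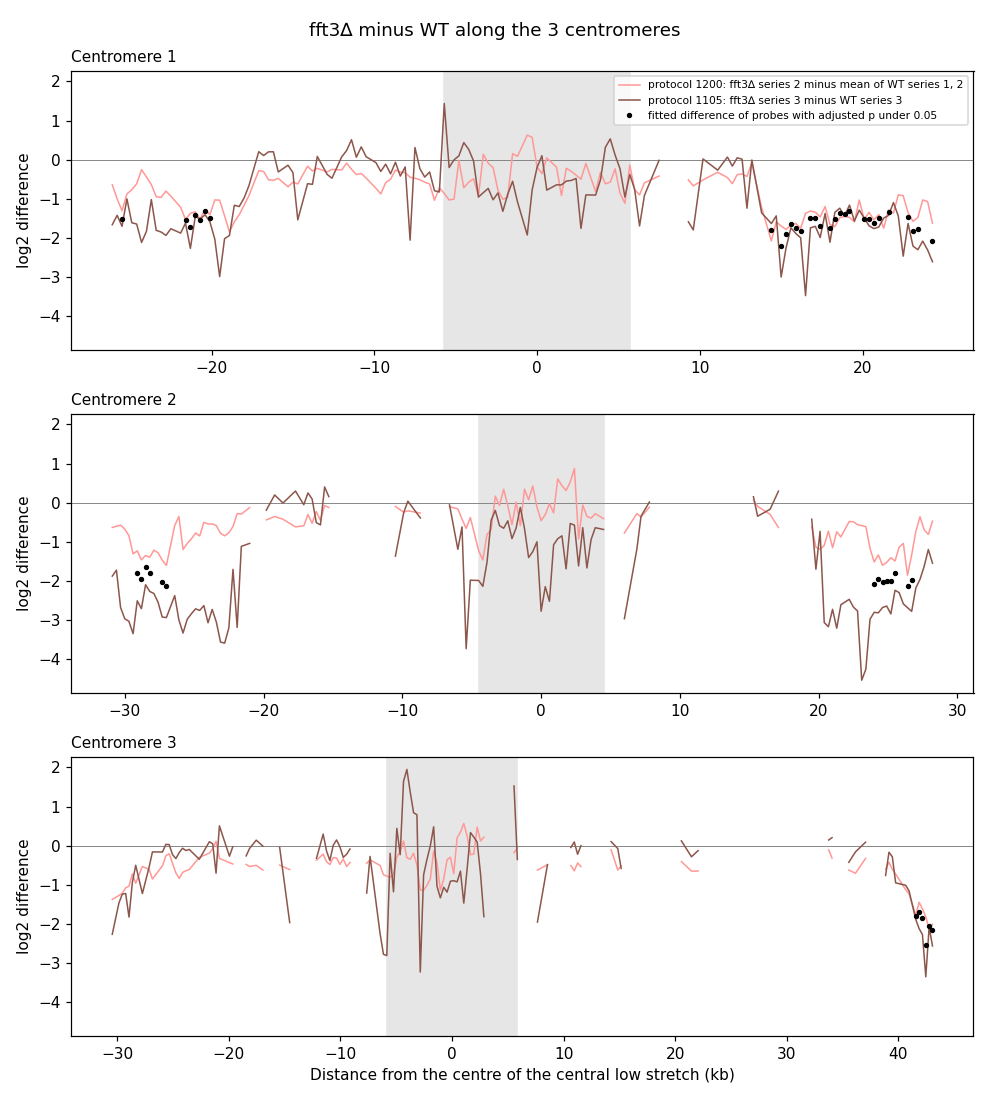
Difference of fft3∆ from WT (log2) against distance from the centre of the low stretch (kb) within each extraction protocol (lines), with the fitted difference of the 50 probes at an adjusted p under 0.05 (points); grey marks the low stretch. The points lie at the outer parts of each centromere, and the lines come nearer to 0 over the plateau.

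Whether the edges differed more than the repeats was tested on the difference of the 2 within each array. Edges minus outer repeats of centromere 1 was -3.69 and -3.74 in fft3∆, and -3.31, -3.28 and -2.87 in WT. In centromere 2 it was -3.75 and -4.14 in fft3∆, and -3.13, -3.23 and -2.53 in WT. The fft3∆ arrays lay below every WT array in both (-0.56 and -0.98, exact permutation p = 0.2 for each, the smallest possible), and without WT series 3 the differences were -0.42 and -0.77. With saturated probes left out they were 0.07 in centromere 1, of opposite sign, and -0.34 in centromere 2. That filter left 17 and 11 repeat probes, which averaged 4.86 and 4.91 in WT, against 7.04 and 6.99 in the plateau. It therefore compares the edges with the lower part of the repeats and cannot speak for the plateau. Against that lower part, the edges of centromere 1 did not fall more. The depth of the low stretch, repeats minus low stretch, was not separated between the strains. It was 4.42 ± 0.37, 4.96 ± 0.01 and 4.58 ± 0.34 in fft3∆ (SD, n = 2) and 4.88 ± 0.44, 5.11 ± 0.21 and 4.93 ± 0.57 in WT (SD, n = 3) in centromeres 1, 2 and 3, with exact permutation p = 0.4, 0.6 and 0.6. The same 3 WT arrays set the limits of the repeats and the low stretch, which can raise the WT depth. These p-values are therefore no independent test.

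The extract channel moved with some of these differences. Cy3 over the outer repeats of centromeres 1, 2 and 3, as log2 relative to the array median, was -0.63, -0.69 and -0.77 in fft3∆ series 2, and 0.14, -0.22 and 0.04 in fft3∆ series 3. It was between -0.45 and -0.64 in WT series 1 and 2, and -1.54, -1.73 and -1.71 in WT series 3. Among the H3K9me2 arrays, Cy3 was lowest in WT series 3 and highest in fft3∆ series 3 in all 3 repeats. Cy5 over the repeats differed by only -0.18, -0.15 and -0.01 (fft3∆ minus WT), and the strains overlapped in all 3. Without series 3 (fft3∆ series 2 against WT series 1 and 2) Cy5 differed by -0.87, -0.49 and -0.75. Within series 3 it was higher in fft3∆ by 0.90, 0.53 and 1.24, where WT Cy5 was saturated at most repeat probes. Over the edges Cy3 stayed between -0.01 and 0.18 in fft3∆ and between -0.27 and -0.07 in WT. Cy5 there was below every WT array in fft3∆, by 1.05 in centromere 1 and 1.46 in centromere 2. In the low stretches fft3∆ Cy3 was above every WT array in all 3 centromeres, by 0.75, 0.90 and 0.80, more than the ratio differences there. Cy5 in the low stretches was higher in fft3∆ than in every WT array in centromere 1 (by 0.44), and overlapped WT in centromeres 2 and 3 (0.39 and 0.52 higher on average). The part of Cy3 in the H3K9me2 differences was not tested.

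UV21 was compared with WT on 1 array, so the limma fit assumes that it varies like the other strains. By the ratio column, H3K9me2 was higher in UV21 in every segment: by 0.99, 1.22 and 1.04 in the outer repeats of centromeres 1, 2 and 3, by 1.12, 0.88 and 1.25 in the low stretches, and by 0.48 and 0.58 in the edges of centromeres 1 and 2. UV21 lay above every WT array in the mean of all 8 segments, with exact permutation p = 0.5, the smallest that 1 array against 3 allows. By probe, UV21 was above all WT arrays at 162 of 191 in the repeats, 87 of 98 in the low stretches and 60 of 88 in the edges, against 25.4% of all kept probes. No centromere probe passed an adjusted p of 0.05 in limma in either direction, and none did among all 33704. At an unadjusted p under 0.05, 152 of 377 were higher and 0 lower, against 0.944% and 2.09% of all probes. Against WT series 1 alone the repeats were higher by 0.95, 1.40 and 0.93, and the low stretches by 1.55, 1.26 and 1.79.

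The sign of the UV21 difference rests on the column used. The processed signals of the same array give -0.62, -0.41 and -0.55 in the repeats of centromeres 1, 2 and 3, and -0.46, -0.71 and -0.38 in the low stretches. Over the 424 probes the processed Cy3 signal of UV21 was 3.00 times (median) what the ratio column gives, and at 3 probes about 9 times, while no probe of the 424 was apart by more than 0.1 log2 units on the other 6 arrays. All 424 centromere probes of UV21 differed between the columns by more than 0.1 log2 units, against 18 of the 41127 others. Over 10 probes inside against 10 outside, the UV21 ratio stepped by 0.49 and 0.33 at the left and right limit of centromere 1, against 0.13 and 0.31 in WT series 1. In the processed signals the UV21 steps there were -1.09 and -1.25, and in centromere 2 they were -0.93 and -1.07, against 0.81 and 0.56 in WT series 1. The background-subtracted Cy3 of UV21 stepped by 0.63 and -0.12 in centromere 2, against 0.63 and 0.10 in WT series 1. The background-subtracted Cy3 thus showed no such step there, and the ratio column was used throughout.

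**Figure D4:**
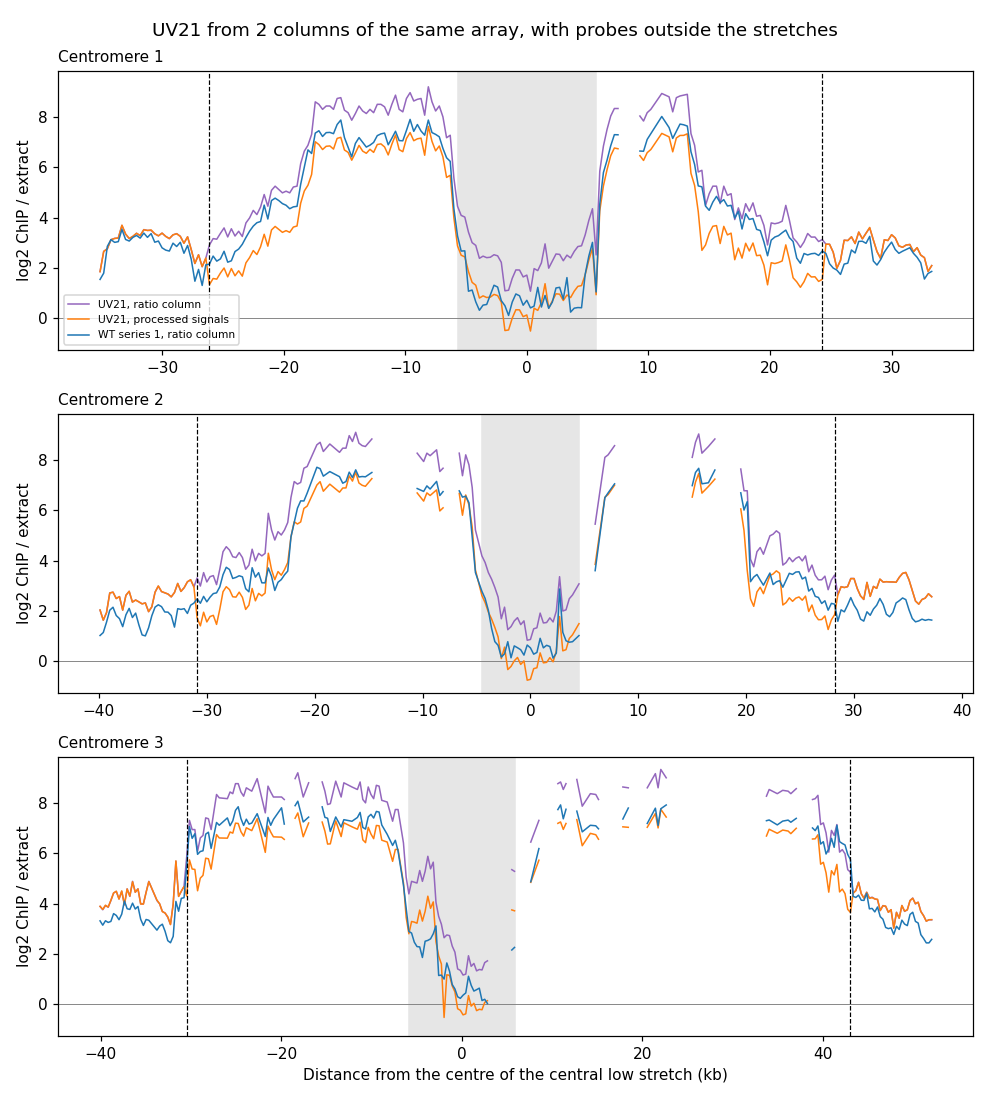
Log2 ChIP over extract of UV21 from the ratio column and from the processed signals, and of WT series 1 from the ratio column, against distance from the centre of the low stretch (kb); dashed lines mark the first and last probe of each stretch, with 30 further probes on either side, and grey the low stretch. The 2 UV21 curves coincide outside the dashed lines and are apart by a median factor of 3.00 inside them.

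The centromeres were compared with each other within each of the 6 H3K9me2 arrays, in 6 comparisons. H3K9me2 in the low stretch was lower in centromere 1 than in centromere 3 by 0.55 ± 0.18 (SD, n = 6 arrays), and lower in centromere 2 than in centromere 3 by 0.87 ± 0.32, on 6 of 6 arrays each. In the outer repeats, centromere 1 was lower than centromere 3 by 0.62 ± 0.15 and centromere 2 lower than centromere 3 by 0.53 ± 0.24, again on 6 of 6 arrays. The 3 WT arrays among the 6 also set the limits of the segments, and the 6 arrays come from 3 strains. These differences are therefore read as descriptions, and the permutation p-values in the closing section are no independent test of them. On the arrays that did not set the limits, repeats of centromere 1 minus 3 were -0.82 and -0.63 in fft3∆ series 2 and 3 and -0.61 in UV21, and those of centromere 2 minus 3 were -0.53, -0.64 and -0.37. Centromere 1 minus 2 averaged -0.10 ± 0.19 in the repeats (lower on 4 of 6 arrays) and 0.32 ± 0.29 in the low stretch (higher on 5 of 6). The low-stretch differences from centromere 3 lay mainly in the left part, where WT averaged 1.74, 1.64 and 3.13 in centromeres 1, 2 and 3. The middle parts averaged 0.89, 0.80 and 1.04 and the right parts 1.65, 1.26 and 1.42. The left part of centromere 3 held 13 probes and its right part 6, so the left part weighs more in the mean. The differences in the repeats depend on the probes taken. In centromeres 1, 2 and 3, WT averaged 7.19, 7.03 and 7.21 at m-marked repeat probes and 6.43, 5.96 and 6.44 at f-marked ones. Unmarked ones averaged 4.69, 5.77 and 6.07. Like-marked probes of centromeres 1 and 3 thus differed little except where unmarked. The m mark was on 32 of 70, 16 of 41 and 50 of 80 kept repeat probes, and 18, 6 and 7 had no mark. The part of this make-up in the differences was not tested. With saturated probes left out, centromere 1 minus 3 was -0.38 and centromere 2 minus 3 was -0.20. With the plateau alone they were 0.11 and 0.12, of opposite sign. With limits from WT series 1 alone, centromere 2 minus 3 was 0.041 and centromere 1 minus 2 was -0.78.

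Fft3-GFP followed the same outline on its single array, at much smaller ratios. It averaged 0.73, 0.91 and 0.84 over the outer repeats of centromeres 1, 2 and 3, and -0.70, -0.88 and -0.61 over the low stretches. In the edges it averaged 0.05 in centromere 1 and 0.63 in centromere 2. A log2 ratio over 1 was reached by 48 of 191 probes in the repeats, 16 of 88 in the edges and 0 of 98 in the low stretches, against 0.672% of the 33327 kept probes outside the centromeres. Across probes, Fft3-GFP and the WT H3K9me2 mean correlated with r = 0.92, 0.72 and 0.93 in centromeres 1, 2 and 3 (146, 119 and 112 probes). This is a description across neighbouring probes that share sheared fragments and, for many, sequence. The extract Cy3 of the Fft3-GFP array was 0.86 to 1.43 over the repeats, higher than on any H3K9me2 array, and its part in these ratios was not tested.

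Centromere 2 departed most from that outline. Within its outer repeats the correlation was -0.58, against 0.81 in centromere 1 and 0.28 in centromere 3. Its longest runs of probes with Fft3-GFP over 1 lay outside the plateau, in the edges and the outer ends of the repeats. One run held 15 probes at 1599000 to 1603200 (mean 1.27, highest 1.69) and the other 8 probes at 1646100 to 1648500 (mean 1.24, highest 1.45). In the left run H3K9me2 averaged 2.85 and 1.82 in fft3∆, 4.80 in UV21, and 3.38, 3.78 and 4.72 in WT. In the right run it averaged 2.75 and 1.46 in fft3∆, 4.65 in UV21, and 3.24, 3.67 and 4.48 in WT. fft3∆ lay below every WT array in both runs, but it did so at all 88 edge probes of centromeres 1 and 2, against 22.7% of all kept probes. Those 88 include the edges of centromere 1, where Fft3-GFP averaged 0.05. A link between Fft3-GFP and the fall was not tested. High Fft3-GFP outside the plateau was not particular to centromere 2. Repeat probes outside the plateau averaged 0.41, 1.22 and 0.96 in centromeres 1, 2 and 3, against 0.86, 0.79 and 0.84 in the plateau. In centromere 3 only 4 probes lay outside it. The 10 probes beyond its left limit averaged 0.88, with H3K9me2 of 3.31, 3.25 and 4.34 in WT. Those beyond its right limit averaged 0.05. In centromeres 1 and 3 no run was longer than 3 probes, and all of these lay in the repeats. Runs were broken at wide gaps between kept probes, and 46.7% of the tiling steps of centromere 3 held no probe. Run lengths therefore cannot be compared directly between centromeres. In the repeats, 12 of 70, 16 of 41 and 20 of 80 probes of centromeres 1, 2 and 3 were over 1.

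At the borders of the low stretch Fft3-GFP also differed between centromeres. The outer border probes of centromere 2 had 1.45 on the left and 1.69 on the right, and those of centromere 3 had 1.10 and 1.18. Those of centromere 1 had 0.33 and 0.48. The 3 highest values within the low stretches were at single probes, which, like the runs above, were singled out after their values were seen. These were the border probe at 1093800 of centromere 3 (0.88), the probe at 1096800 of centromere 3 (0.95) and the probe at 1628100 of centromere 2 (0.86). All 3 were above their low stretch's mean in H3K9me2 on every WT array. The probe at 1628100, which carries no mark, read 2.14 and 2.29 in fft3∆, 3.36 in UV21 and 2.87, 3.28 and 3.91 in WT. The probe at 1096800 read 2.02 and 1.24 in fft3∆, 4.05 in UV21 and 3.11, 3.19 and 4.48 in WT. fft3∆ was below every WT array at both, as it was at 25.5% of the low-stretch probes and 22.7% of all kept probes.

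**Figure D5:**
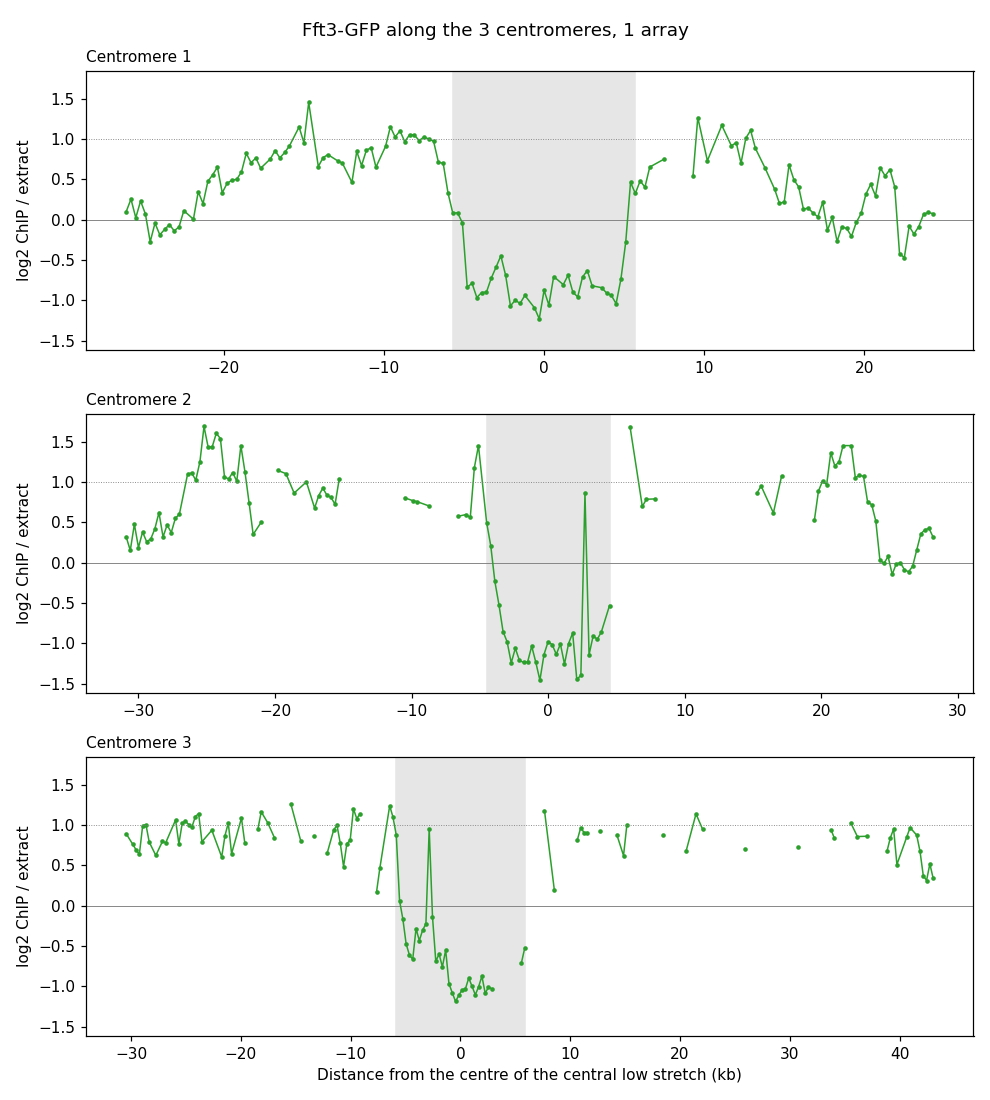
Fft3-GFP (log2 ChIP over extract, 1 array) of each kept probe against distance from the centre of the low stretch (kb), with 0 as a solid line, 1 as a dotted line and the low stretch in grey. Values are below 0 over most of each low stretch and the longest runs above 1, of 15 and 8 probes, lie at the outer ends of the centromere 2 repeats and in its edges.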

How the data were processed

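H3K9me2 was measured on 6 arrays and Fft3-GFP on 1, all custom 2-colour Agilent arrays of 60 nt probes every 300 bp. Per the file headers, the arrays were read with Agilent Feature Extraction 12.0.3.1 (WT series 1 and 2, UV21, Fft3-GFP), 10.7.3.1 (fft3∆ series 2) and 11.5.1.1 (series 3), which gave each spot's intensity and a log10 ratio of Cy5 over Cy3; any further steps are not given in the sources used here. The deposited value table holds the linear ratio of processed Cy5 to Cy3 (r = 1 with that of the scanner files; medians 0.943 to 1.01).

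The log10 ratio was turned to log2 and centred on each array's median over 41551 probes. Probes not well above background in Cy3 or non-uniform on any H3K9me2 array were left out, which kept 33704. limma 3.58.1 (R 4.3.3; lmFit, eBayes, group as the only term) was fitted over all of them with Benjamini-Hochberg adjustment at 0.05, after a test on simulated data. Segment means of fft3∆ and UV21 were compared with WT by exact permutation over arrays (scipy 1.17.1, numpy 2.4.6). Median Cy3 was 19.7 to 219 times local background. Normexp with offset 50 used median signals, the files having no mean signals.

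Named probes were the highest in WT in the outer repeats and the lowest in each low stretch, those next to each border, and up to 5 called per centromere and direction with fft3∆ not overlapping WT. Members, lists and tests were chosen with earlier results of these data known.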

Additional observations from a re-analysis of the deposited data

Results flagged for a closer look

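The processed Cy3 signal of the UV21 array, which entered only the comparison of the columns, was raised over all 424 centromere probes. It was 3.00 times (median) what the ratio column of the same array gives, while on the WT arrays no centromere probe differed between the columns by more than 0.1 log2 units. At 3 of the 424 probes it was about 9 times. Outside the centromeres 18 of 41127 probes of the UV21 array differed between the 2 columns by more than 0.1 log2 units, against 16 and 9 on the fft3∆ arrays and at most 1 on each WT array.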

How the results depend on the processing

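The fall of H3K9me2 in fft3∆ kept its direction in all 8 segments under every alternative run. The count of centromere probes called lower, 50, became 30 with non-uniform features kept, 26 with the extraction protocol as a block and 15 with the series number as a replicate block, and ran from 0 to 102 when single arrays were left out. The series numbers were not treated as pairing: deviations of same-numbered fft3∆ and WT arrays correlated by 0.01 in both series (33704 probes). With 2 fft3∆ arrays the deviations of one mirror those of the other, so these are not 2 separate checks and cannot exclude pairing. Within-series differences of the segment means changed no direction. UV21 minus WT turned negative with the processed signals, at -0.62, -0.46 and -1.10 in the repeats, low stretch and edges of centromere 1, -0.41, -0.71 and -1.001 in those of centromere 2, and -0.55 and -0.38 in the repeats and low stretch of centromere 3. The depth of the low stretch, fft3∆ minus WT, turned positive in centromere 2 within series 3 (0.057), with borders from WT series 1 alone (0.11), with medians over probes (0.052) and with the plateau only (0.16), and in centromere 3 with medians (0.017). Between centromeres, sign-flip permutation over the 6 arrays gave an adjusted p of 0.0469 for 4 of 6 differences, but 3 of these arrays set the segment limits, so the p-values are no independent test. The repeats of 1 minus 2 became -0.78 (adjusted exact permutation p = 0.0469) with borders from WT series 1 alone and 0.030 with medians. The repeats of 2 minus 3 became 0.041 with borders from WT series 1 alone and 0.12 with the plateau only, and those of 1 minus 3 became 0.11 with the plateau only, an alternative added after seeing the data. With saturated features left out, none of these 4 had an adjusted p under 0.05 (-0.38 and -0.20 in the repeats of 1 minus 3 and 2 minus 3, with -0.55 and -0.87 in the low stretches, where values were the same and only the adjustment changed). Low stretch 1 minus 2 had an adjusted p of 0.0375 by exact permutation with non-uniform features kept (0.32). With 1 array left out, 5 arrays cannot go below 0.05, and these differences ranged from -0.68 to -0.59 and from -0.60 to -0.46 in the repeats of 1 minus 3 and 2 minus 3, and from -0.59 to -0.50 and from -0.94 to -0.79 in the low stretches. Saturation on WT series 3 limits the values over the repeats; the number of arrays limits all tests.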
